A study of Mus musculus with 22 samples.

Results

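The sodium pump genes described here are the beta subunits Atp1b1, Atp1b2 and Atp1b3 and the FXYD regulators Fxyd1, Fxyd2, Fxyd3, Fxyd4, Fxyd5 and Fxyd6. They were taken by symbol, and 9 of 9 were found among 54514 entries of the expression table. The set was chosen by the measured difference between GFP-positive and GFP-negative cells, in which Fxyd4 was the top rise after Aqp2, so the differences of these genes between GFP fractions are given as descriptions, with no p, and the test run on them asks only whether they vary from line to line.

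Expression was measured by RNA-seq in 22 libraries of mpkCCD, a mouse cortical collecting duct cell line, here a secondary clone grown on permeable supports in medium that held dexamethasone in every group. Of these, 6 libraries came from unsorted wild-type (WT) cells, 3 without dDAVP and 3 with dDAVP, a vasopressin analogue acting on the V2 receptor. The other 16 came from the GFP reporter lines C1, C11, C43 and C50, each given dDAVP and separated by GFP, and every line gave 2 GFP-negative and 2 GFP-positive libraries. No reporter library came from cells without dDAVP, so the fractions can be compared with each other but dDAVP can be compared only in WT cells. The labels list more than 1 dDAVP dose and duration without tying them to libraries, and the reporter's promoter and the sorting procedure were not given in the sources used here. Whether each reporter line grew from a single cell was not given in the sources used here either. Nothing says that replicate libraries came from separate cultures, so p-values measure only the spread between these libraries, which may be technical.

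The pump moves sodium out of the cell and potassium in, on the basolateral side of kidney epithelia. It needs a beta subunit to fold and to reach the membrane, and a small FXYD protein can bind the complex and tune its affinity for ions. In the collecting duct, Fxyd4 (also called CHIF) is known to raise the pump's sodium affinity, and Fxyd2 (the gamma subunit) is known from more proximal nephron segments. Vasopressin acts on principal cells through cyclic AMP, which drives Aqp2, the apical water channel.

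Sequence before the RefSeq start site is shown for both genes that passed the dDAVP test, Fxyd4 and Atp1b1. It is also shown for the Atp1b3 window that is the only member window with a match to a searched motif. Whether these stretches are the promoters used in these cells was not tested. The windows are the 250 bases before the start site, from RefSeq on GRCm38.p6, and letters inside an exon of the GENCODE annotation were left out. What is shown is the minus strand of chr6:117937524-117937585 (62 bases) for Fxyd4, chr1:164458356-164458605 (250 bases) for Atp1b1 and chr9:96364443-96364681 (239 bases) for Atp1b3. Capitals mark the match, and the searches used the whole windows.
Fxyd4: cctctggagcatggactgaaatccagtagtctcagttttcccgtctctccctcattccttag
Atp1b1: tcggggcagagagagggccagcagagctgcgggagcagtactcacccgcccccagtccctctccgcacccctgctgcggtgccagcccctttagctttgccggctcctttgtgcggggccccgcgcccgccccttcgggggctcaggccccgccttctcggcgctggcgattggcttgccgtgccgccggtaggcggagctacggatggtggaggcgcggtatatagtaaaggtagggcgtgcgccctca
Atp1b3: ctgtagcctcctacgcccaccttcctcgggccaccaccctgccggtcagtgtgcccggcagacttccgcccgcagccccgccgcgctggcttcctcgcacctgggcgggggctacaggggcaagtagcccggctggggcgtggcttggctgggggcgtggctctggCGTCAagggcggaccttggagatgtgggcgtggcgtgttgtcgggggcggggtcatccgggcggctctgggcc
The searched motifs, on both strands, were TGACGTCA (the cyclic AMP response element), TGACG (its shorter form, contained in TGACGTCA) and AGATAA, a form of the site that GATA-family factors bind. Among all 32851 windows of 250 bases, 1.55% held TGACGTCA, 17.8% held TGACG and 9.99% held AGATAA. RefSeq windows matched 7 of 9 members, in 8 windows, with none for Atp1b2 or Fxyd2. The only match was the reverse form CGTCA in the Atp1b3 window shown, 84 bases before the start site (position -84). No such letters lie in the windows of Fxyd1, Fxyd3, Fxyd4, Fxyd5, Fxyd6 or Atp1b1, which says nothing about binding elsewhere. Of the 250 bases searched, 188 for Fxyd4 and 219 for Fxyd5 lay in an exon of the GENCODE annotation. For these members the search covered mostly transcribed sequence, so the lack of a match says nothing about their promoters.

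Values are in TPM, a unit of transcript abundance that is scaled for transcript length, so levels of different genes can be compared. TPM keeps no read depth, so the depth behind a value is unknown. Between 12293 and 14341 entries reached 1 TPM in a library. By entries above 0 TPM (genes detected), 12 libraries had 23135 to 31292 and 10 had 17177 to 20250. Both sets held libraries of both WT groups and of both GFP fractions. The cause of this split was not tested. Library C50 GFP-negative replicate 1 stood apart, with 7.81% of its TPM in ribosomal protein genes against 3.64% to 5.81% in the other 21 libraries. GFP was at 5.31 to 17.6 TPM in GFP-negative and 1065 to 1567 TPM in GFP-positive libraries, which goes with the labels. Aqp2 was at 64.1 to 74.9 TPM in WT without dDAVP and 2759 to 3025 TPM with it. Epithelial markers summed to 8930 to 14608 TPM per library, whereas principal cell markers were uneven. Aqp3, Aqp4 and Scnn1b reached at most 4.13, 6.46 and 0.82 TPM. Avpr2 (the V2 receptor) ran from 137 to 385 TPM, Gata3 from 97.2 to 335 TPM, Scnn1a from 42.2 to 244 TPM, Scnn1g from 7.42 to 31.6 TPM and Hsd11b2 from 4.46 to 36.2 TPM over the 22 libraries. Of 8 intercalated cell markers 3 reached 1 TPM in any library, with summed group means of 26.4 to 110 TPM mostly from Atp6v1b1, and the defining marker Foxi1 stayed at or below 0.1 TPM. Markers of thick limb and distal tubule summed to at most 1.57 TPM in any library, of fibroblasts to 1.47 TPM, of proximal tubule to 16.1 TPM and of leukocytes and endothelium to 13.7 TPM.

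**Figure D1:**
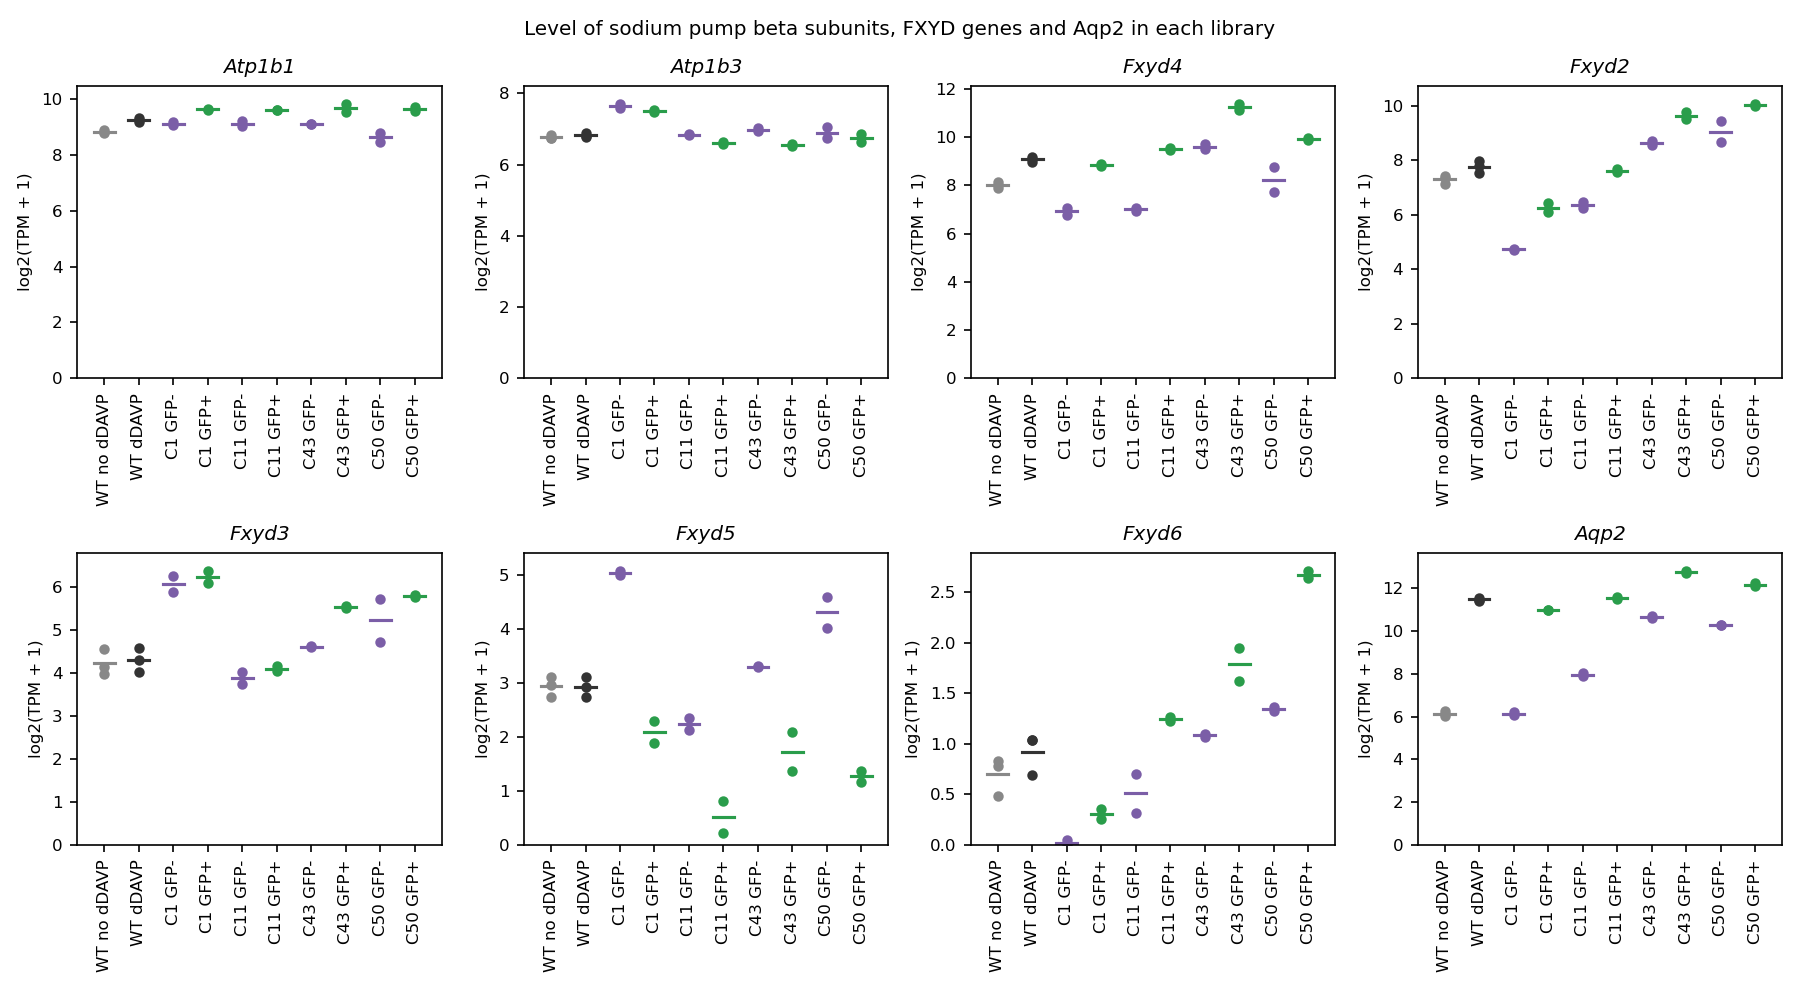
Level of 7 member genes and Aqp2 as log2(TPM + 1) on the vertical axis, in the 10 groups on the horizontal axis; points are libraries, bars are group means, and WT groups are grey or black, GFP-negative purple and GFP-positive green. Fxyd4, Fxyd2, Fxyd6 and Atp1b1 are higher in GFP-positive than GFP-negative libraries of each line, and Fxyd5 is lower.

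Atp1b1, Fxyd4 and Fxyd2 were the abundant members, averaging 627, 649 and 337 TPM over all 22 libraries. Atp1b3 averaged 124 TPM and Fxyd3, first described in mammary tumours, 35.3 TPM. Fxyd5, also called dysadherin, averaged 8.32 TPM and Fxyd6 1.35 TPM. Atp1b2, known mainly from brain, never exceeded 0.63 TPM, and Fxyd1 (phospholemman, known from heart and muscle) was listed at 0 in 19 libraries and never exceeded 0.42 TPM. Atp1b2 and Fxyd1 passed the filter of a mean of 1 TPM in neither the WT nor the reporter libraries, and Fxyd6 passed it only in the reporter libraries. Tests therefore covered 6 of 9 members in WT cells and 7 of 9 in reporter lines.

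In WT cells dDAVP raised Fxyd4 and, less firmly, Atp1b1, while no change was detected in Fxyd2, Fxyd3, Fxyd5 or Atp1b3 by the test across all genes. Fxyd4 was at 236, 278 and 260.4 TPM in the 3 libraries without dDAVP and at 577, 536 and 505 TPM in the 3 with it. The groups were far apart, with every treated library above every untreated one. The change was 1.06 on the log2(TPM + 1) scale (SE 0.0856, 95% interval 0.86 to 1.26, limma, adjusted p = 0.00102), a 2.09-fold rise. The adjusted p stayed between 0.000413 and 0.0368 in all 16 alternatives run.

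Atp1b1, the common beta subunit of kidney epithelia, was at 473, 456 and 438 TPM without dDAVP and at 588, 639 and 609 TPM with it. The groups did not overlap. It rose by 0.43 on the log2(TPM + 1) scale (SE 0.0647, limma, adjusted p = 0.0118), or 1.34-fold. The call was lost in 6 of 16 alternatives. The limma adjusted p of Atp1b1 rose to 0.138 after quantile normalization, which lowered the change to 0.27, to 0.108 with a replicate block and to 0.132 in the libraries with more genes detected, both at a change of 0.43. It rose to 0.0524, 0.0539 and 0.0627 without WT no-dDAVP replicate 2, WT no-dDAVP replicate 3 and WT dDAVP replicate 3, at changes of 0.43, 0.40 and 0.43.

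Fxyd2 was at 139, 168 and 161 TPM without dDAVP and at 247, 185 and 219 TPM with it. Here too the libraries of the groups did not overlap, but the difference of 0.47 on the log2(TPM + 1) scale (SE 0.123, 95% interval 0.18 to 0.75) missed the threshold (limma, adjusted p = 0.0569). It passed in 4 of 16 alternatives, among them the fit without WT dDAVP replicate 2 (adjusted p = 0.025).

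The remaining members overlapped between the WT groups. Atp1b3, a beta subunit of many tissues, was at 106 to 114 TPM without and 109 to 118 TPM with dDAVP, a difference of 0.05 on the log2(TPM + 1) scale (95% interval -0.12 to 0.22). Fxyd3 was at 14.8 to 22.3 TPM without and 15.3 to 22.7 TPM with dDAVP, a difference of 0.08 (95% interval -0.36 to 0.52). Fxyd5 was at 5.69 to 7.63 TPM without and 5.68 to 7.67 TPM with dDAVP, a difference of -0.01 (95% interval -0.39 to 0.36). Adjusted p values from limma were 0.649, 0.795 and 0.970 for Atp1b3, Fxyd3 and Fxyd5. Fxyd6 was at 0.40 to 0.78 TPM without and 0.61 to 1.05 TPM with dDAVP and was not tested.

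In all, 2 of 6 tested members were called with dDAVP, both higher, beside 8.88% of all 13494 genes tested, of which 2.37% were called higher and 6.51% lower. Libraries of the WT groups did not overlap, with higher values under dDAVP, for 3 of 6 tested members, beside 7.12% of all genes tested. The median change of all genes tested was -0.16 on the log2(TPM + 1) scale, and scaling by median ratios moved it to 0.00026. That scaling gave 451 genes higher and 306 lower, against 320 higher and 878 lower as deposited, and Fxyd4 and Atp1b1 remained called.

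The genes of dividing cells moved with dDAVP too. Of 6 such genes, 5 fell in WT cells, where 6.51% of all genes did, and the summed level of the 6 went from 741 to 804 TPM without dDAVP to 436 to 607 TPM with it. The called genes with the highest means were Aurkb, Top2a, Ccnb1 and Plk1, which fell by 0.59, 0.93, 0.61 and 0.58 on the log2(TPM + 1) scale (limma, adjusted p = 0.0194, 0.00937, 0.0376 and 0.0211). Whether these genes have a part in the member changes was not tested. With other scalings 2 (median ratios) or 4 (quantile) of the 6 genes fell. In these bulk samples, fewer cells of a type and less RNA per cell cannot be told apart.

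**Figure D2:**
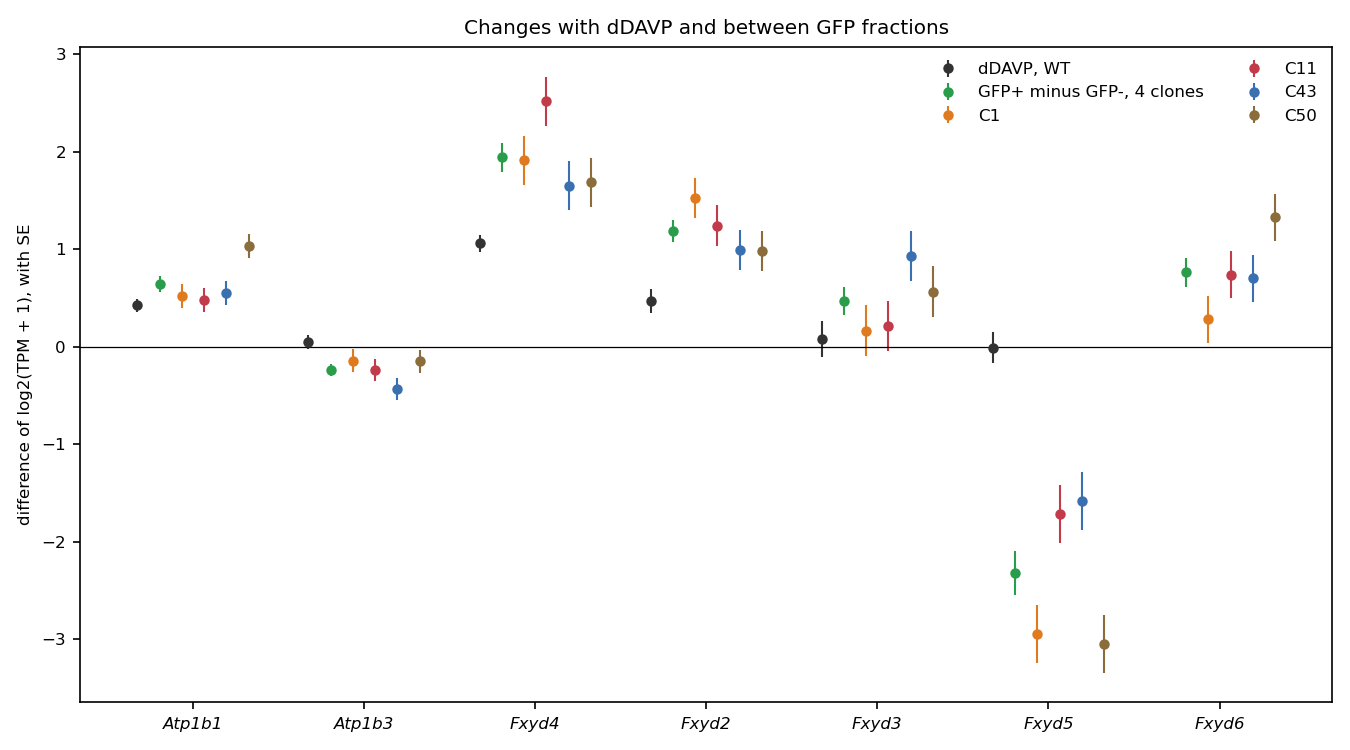
Difference of log2(TPM + 1) on the vertical axis, with its SE, for 7 members on the horizontal axis: dDAVP against none in WT cells (black), GFP-positive minus GFP-negative over 4 lines (green) and within each line (other colours). Fxyd4 is at 1.06 with dDAVP and at 1.94 between fractions, and Fxyd5 at -0.01 and -2.32; Fxyd6 has no WT value because it missed the filter there.

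Between the GFP fractions, Fxyd4, Fxyd2, Atp1b1 and Fxyd6 were higher in GFP-positive libraries of every line, and Fxyd5 was lower in every line. The values of this contrast led to the choice of the genes, so no p is given for them. All 7 members that passed the filter were called in it, where 35.3% of all 13113 genes tested were called, and nothing is read from that count.

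Fxyd4 was at 134 and 107 TPM in C1 GFP-negative and at 469 and 439 TPM in C1 GFP-positive libraries. In C11 it was at 133 and 122 TPM in the GFP-negative and at 754 and 714 TPM in the GFP-positive fraction. The C43 fractions stood at 717 and 836 TPM and at 2255 and 2624 TPM, so the GFP-negative cells of C43 had more Fxyd4 than the GFP-positive cells of C1. In C50 the GFP-negative libraries held 433 and 209 TPM and the GFP-positive ones 994 and 946 TPM. GFP-positive means were thus 3.77, 5.75, 3.14 and 3.02 times the GFP-negative means in C1, C11, C43 and C50. The C50 ratio was 4.65 without C50 GFP-negative replicate 1, the library rich in ribosomal protein RNA. It was 2.24 without C50 GFP-negative replicate 2. Over the 4 lines the Fxyd4 difference was 1.94 on the log2(TPM + 1) scale (SE 0.145), and it was 2.06 (SE 0.106) without C50 GFP-negative replicate 1. Leaving out each library in turn gave 1.87 to 2.06.

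Fxyd2 was at 25.3 and 25.9 TPM in C1 GFP-negative and at 67.8 and 84.3 TPM in C1 GFP-positive libraries. In C11 its fractions were at 88.3 and 75.1 TPM and at 202 and 187 TPM. It reached 380 and 414 TPM in C43 GFP-negative and 718 and 872 TPM in C43 GFP-positive libraries, and 684 and 404 TPM and 1059 and 1019 TPM in the fractions of C50. Dividing fraction means gave 2.97 for C1, 2.38 for C11, 2.00 for C43 and 1.91 for C50. The C50 value was 2.57 without GFP-negative replicate 1 and 1.52 without GFP-negative replicate 2. Every GFP-positive library lay above the GFP-negative libraries of its own line, but C11 GFP-positive libraries lay below the GFP-negative libraries of C43 and C50.

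Atp1b1 was at 535 and 585 TPM in C1 GFP-negative, 529 and 594 TPM in C11 GFP-negative, and 556 and 556 TPM in C43 GFP-negative libraries. C50 GFP-negative libraries were lowest, at 355 and 443 TPM. The 8 GFP-positive libraries lay between 739 and 906 TPM, all above the 8 GFP-negative ones, and the difference was 0.65 on the log2(TPM + 1) scale (SE 0.0826). Atp1b3 went the other way, at -0.24 (SE 0.0639), and its libraries did not overlap in 3 of 4 lines.

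Fxyd5, which is known to affect cell adhesion, was at 31.0 and 32.9 TPM in C1 GFP-negative and at 2.72 and 3.93 TPM in C1 GFP-positive libraries. In C50 it was at 23.2 and 15.3 TPM against 1.24 and 1.59 TPM, and in C43 at 8.78 and 8.99 TPM against 1.57 and 3.26 TPM. C11 had the lowest levels, 4.08 and 3.35 TPM against 0.76 and 0.17 TPM. GFP-negative means were 9.61, 7.99, 3.68 and 13.6 times the GFP-positive means in C1, C11, C43 and C50. The ratio moved with single libraries. In C11 it was 21.9 without GFP-positive replicate 1 and 4.89 without GFP-positive replicate 2. In C43 it was 2.73 without GFP-positive replicate 1 and 5.66 without GFP-positive replicate 2. The WT means of 6.71 TPM without and 6.65 TPM with dDAVP lay above every GFP-positive mean and below the GFP-negative means of C1, C43 and C50.

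Fxyd3 was 0.47 higher in GFP-positive libraries on the log2(TPM + 1) scale (SE 0.142). Its libraries overlapped in C1 and were far apart only in C43, at most 23.7 TPM against at least 44.7 TPM. In C11 and C50 they did not overlap, but the gaps were small, 15.3 against 15.4 TPM and 51.6 against 53.3 TPM. The C50 ratio of means was 2.13 without GFP-negative replicate 1 and 1.05 without GFP-negative replicate 2. Fxyd6, a regulator known from the nervous system, was at 5.23 and 5.56 TPM in C50 GFP-positive and 1.58 and 1.51 TPM in C50 GFP-negative libraries. In C43 it was at 2.86 and 2.08 TPM against 1.14 and 1.10 TPM, and in C11 at 1.34 and 1.41 TPM against 0.24 and 0.63 TPM. In C1 it stayed at or below 0.28 TPM in both fractions. Libraries of the fractions did not overlap in any of the 4 lines for 4 members that were higher (Atp1b1, Fxyd2, Fxyd4, Fxyd6), beside 6.72% of all genes tested, and for 1 that was lower (Fxyd5), beside 12.2%. Nothing is read from these counts, since the contrast chose the genes and Fxyd6 passed the filter through the groups where it is high.

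Dividing cell genes moved with the fractions as well. Their summed level per library was 541 to 563 TPM in C1 GFP-negative against 422 to 424 TPM in C1 GFP-positive, and 608 to 640 TPM against 287 to 295 TPM in C11. It was 681 to 784 TPM against 226 to 256 TPM in C43, and 917 to 966 TPM against 246 to 258 TPM in C50. All 6 of 6 genes were called lower, where 23.2% of all genes were, and their part in the member differences was not tested. The summed level of the intercalated cell markers, most of it Atp6v1b1, had a higher group mean in the GFP-positive fraction of each line, from 26.4 TPM against 82.9 TPM in C50 to 60.2 TPM against 73.9 TPM in C11, also without a test of its part. Atp6v1b1 libraries of the fractions overlapped in C11 and C43, and single markers could go the other way, such as Slc4a9 in C11 (2.92 TPM GFP-negative against 2.52 TPM GFP-positive).

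Whether the fraction difference itself varied from line to line was tested with an interaction term. It called 0 of 7 members, beside 0.869% of all genes tested (114 of 13113). Fxyd6 passed the filter through the groups where it is high, so its part in this count is not read as a result. Unadjusted values from limma were under 0.05 for 2 members, at 0.0293 for Atp1b1 and 0.00658 for Fxyd5, and the adjusted p values from limma were 0.321 and 0.194. Within the lines the Atp1b1 difference was 0.52, 0.48, 0.56 and 1.03 on the log2(TPM + 1) scale in C1, C11, C43 and C50 (SE 0.123 each). The Fxyd5 difference was -2.94, -1.71, -1.58 and -3.04 (SE 0.296 each). The added 1 TPM understates differences at low levels, as in C11, and with a pseudocount of 0.1 the Fxyd5 interaction had F = 2.27 against 6.97 (limma, adjusted p = 0.501). For Fxyd4 the differences were 1.91, 2.52, 1.65 and 1.69 (SE 0.252 each), with an adjusted p of 0.477 for the interaction (limma). Without C50 GFP-negative replicate 1 the interaction called 0 members, and without C50 GFP-negative replicate 2 it called 5, where 5038 of all 13066 genes tested were called. In that fit the library rich in ribosomal protein RNA was alone in its group and taken to vary like the others.

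With the fraction held in the model, levels also differed between the 4 lines, for 5 of the 6 members tested other than Fxyd6, beside 28% of all genes tested. Among members that stayed above 1 TPM in every library Fxyd2 varied most, with GFP-negative means from 25.6 TPM in C1 to 544 TPM in C50, a span of 21.3-fold, and GFP-positive means from 76.0 to 1039 TPM, a span of 13.7-fold (limma F = 296, adjusted p = 5.84e-10). Fxyd4 spanned 6.44-fold among GFP-negative and 5.37-fold among GFP-positive means, lowest in C1 and highest in C43 for both (adjusted p = 2.23e-06, limma).

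Fxyd3 was highest in C1 and lowest in C11 in both fractions, with GFP-positive means of 74.7 and 16.1 TPM (limma, adjusted p = 1.61e-05). Fxyd5 had the same ends, C1 and C11 (adjusted p = 0.000873, limma), and without line C11 the adjusted p was 0.0655. Fxyd6 means had the same order of lines as Fxyd2 in both fractions, highest in C50 and lowest in C1. Fxyd6 passed the filter through the lines where it is high, since both C1 means were under 1 TPM, so its call here is not read as a result. With every gene above 0 TPM in any library tested, which does not use that filter, its adjusted p was 0.000259 (limma). Atp1b3 was at 192 and 206 TPM in GFP-negative and 178 and 183 TPM in GFP-positive C1 libraries, above the 91.3 to 132 TPM of every other reporter library. Its difference between lines (limma, adjusted p = 1.80e-05) was lost without C1 (adjusted p = 0.820). For Atp1b1 no difference between lines was detected (adjusted p = 0.269, limma), and its GFP-positive means lay within 1.05-fold of each other.

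Across all 10 groups, Fxyd4 means ran from 121 TPM in C1 GFP-negative to 2439 TPM in C43 GFP-positive, a 20.2-fold span. From the top the order was C43 GFP-positive, C50 GFP-positive, C43 GFP-negative, C11 GFP-positive, WT with dDAVP, C1 GFP-positive, C50 GFP-negative, WT without dDAVP, C11 GFP-negative and C1 GFP-negative. Neighbours in this order overlapped in 3 of 9 cases, C43 GFP-negative with C11 GFP-positive, C50 GFP-negative with WT without dDAVP, and C11 GFP-negative with C1 GFP-negative. The span of group means was 40.6-fold for Fxyd2 and 68.7-fold for Fxyd5, the latter 188-fold or 42.1-fold without C11 GFP-positive replicate 1 or 2. It was 2.06-fold for Atp1b1 and 2.14-fold for Atp1b3, so these beta subunits varied over a smaller range than Fxyd2, Fxyd4 or Fxyd5.

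The mix of FXYD transcripts differed between groups. Fxyd4 was the most abundant FXYD gene in 18 libraries and Fxyd2 in the 4 libraries of C50. In WT cells Fxyd4 made up 58.4% to 59.3% of the summed FXYD TPM without dDAVP and 66.9% to 72.2% with it, while Fxyd2 made up 35.0% to 36.1% and 24.9% to 29.1%. The fall of the Fxyd2 share depends on Fxyd4 being in the sum: with Fxyd4 left out, Fxyd2 averaged 86.0% without and 89.1% with dDAVP. In C1 GFP-negative libraries Fxyd3 and Fxyd5 took 27.2% and 13.2% on average, against 12.3% and 0.549% in C1 GFP-positive libraries. In C50, Fxyd2 took 59.5% of the GFP-negative and 50.2% of the GFP-positive sum. This fall also depends on Fxyd4: with it left out, Fxyd2 averaged 90.2% and 94.5%. The mean ratio of Fxyd4 to Fxyd2 was higher in the GFP-positive than in the GFP-negative fraction of each line. GFP-negative against GFP-positive, it was 4.72 against 6.07 in C1 and 1.57 against 3.78 in C11. It was 1.95 against 3.07 in C43 and 0.575 against 0.934 in C50. In C1 the libraries overlapped (4.14 to 5.30 against 5.21 to 6.92).

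Beta subunit transcripts were a mix of Atp1b1 and Atp1b3. Atp1b1 made up 80.4% to 81.1% of their sum in WT without dDAVP and 83.7% to 85.4% with it. Its mean share ranged from 73.7% in C1 GFP-negative, the lowest, to 89.8% in C43 GFP-positive, the highest. The summed FXYD level was 0.323 times the summed beta level in C1 GFP-negative libraries and 3.65 times in C43 GFP-positive ones. In WT cells this ratio was 0.781 without and 1.08 with dDAVP.

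**Figure D3:**
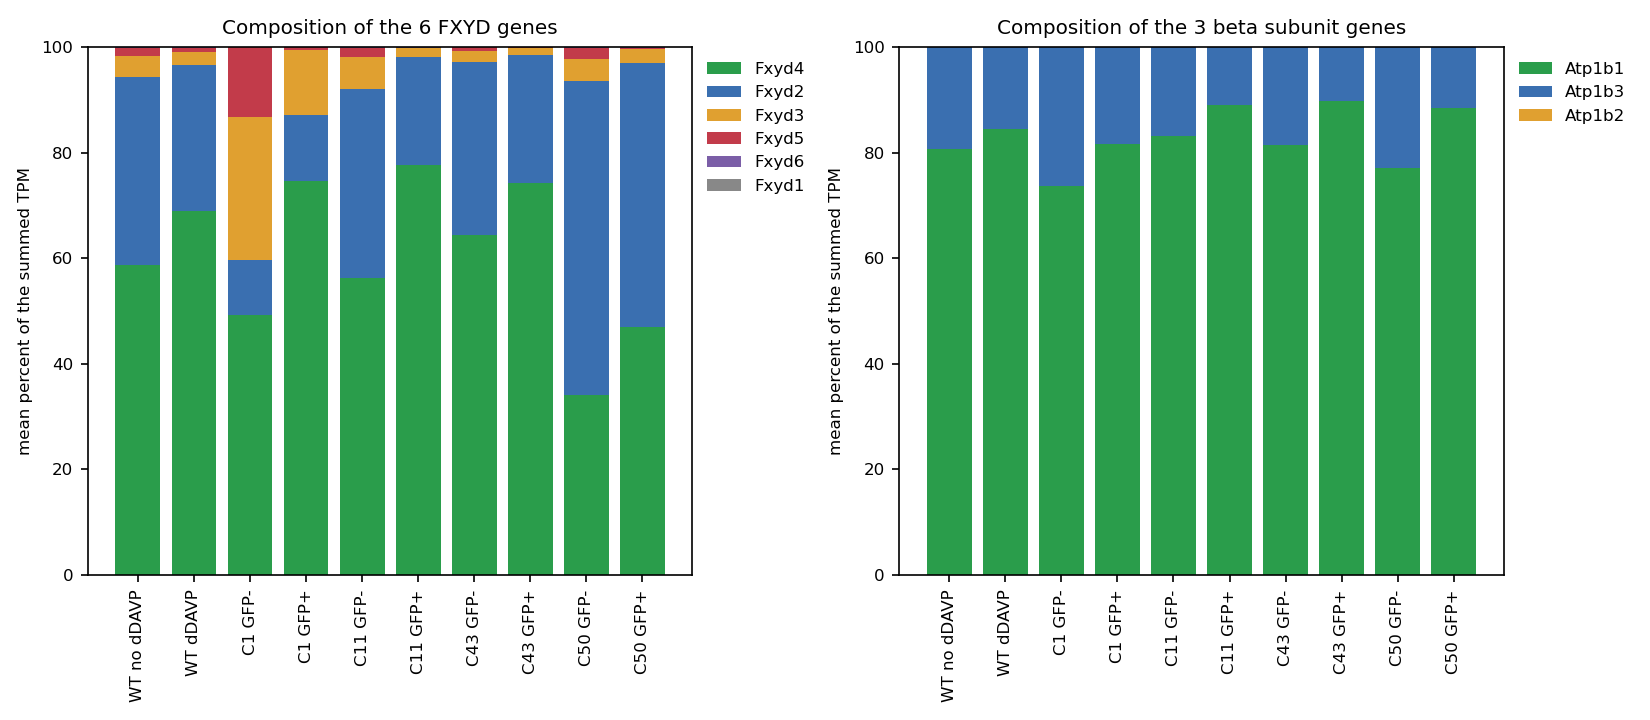
Mean percent of the summed TPM on the vertical axis, for 6 FXYD genes (left) and 3 beta subunit genes (right), in the 10 groups on the horizontal axis. Fxyd4 is the largest FXYD share except in C50, where Fxyd2 takes 59.5% and 50.2%, and Atp1b1 is the largest beta share throughout.

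Members varied together in part. Over 22 libraries the Pearson r of log2(TPM + 1) between Fxyd4 and Fxyd2 was 0.78, between Fxyd4 and Atp1b1 0.58 and between Fxyd4 and Fxyd5 -0.56. Fxyd2 and Fxyd6, which are neighbours on the chromosome in RefSeq's GRCm38.p6 annotation, had r = 0.90. Their reads could be partly split or shared in counting, and their levels differed by a large factor (337 against 1.35 TPM on average). The libraries fall into 10 groups, so these values describe the groups more than independent points.

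**Figure D4:**
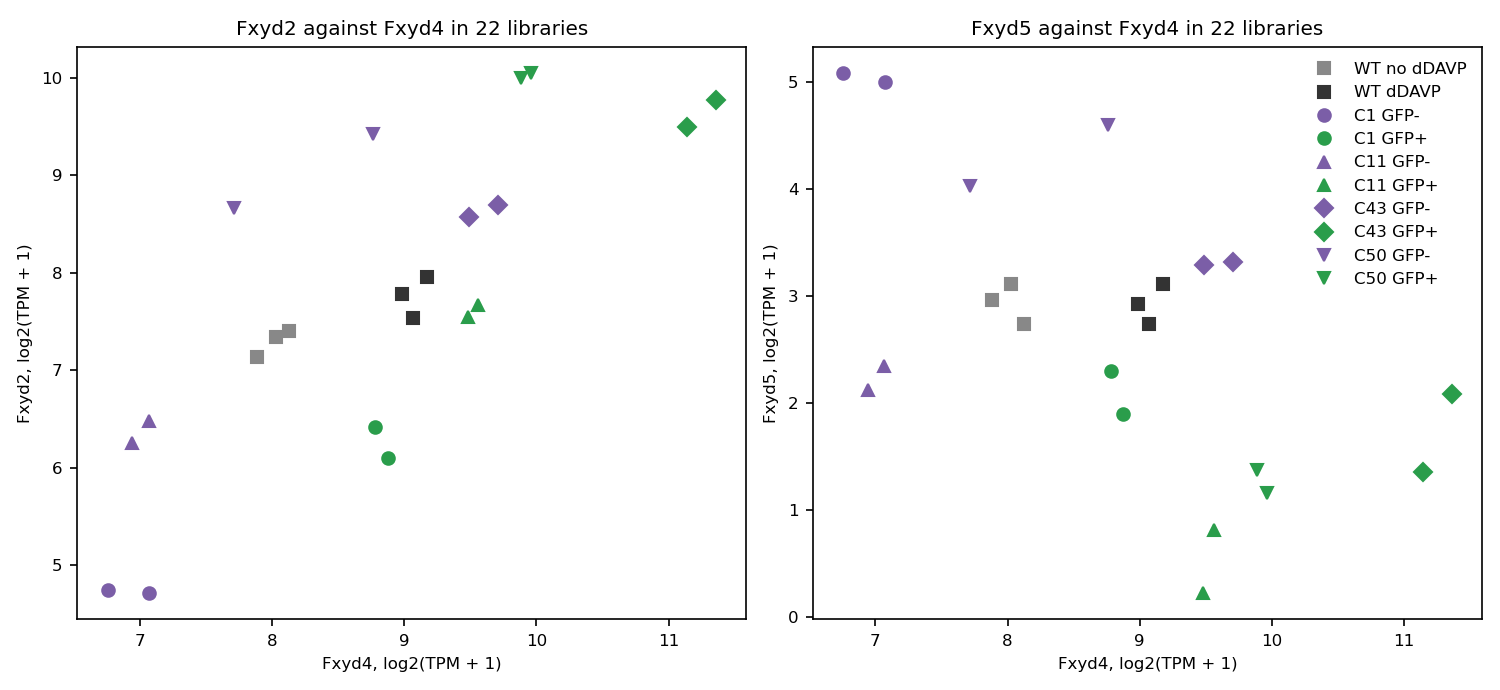
Fxyd2 (left) and Fxyd5 (right) on the vertical axes against Fxyd4 on the horizontal axes, all as log2(TPM + 1), with a point per library and symbols by line and fraction. From GFP-negative to GFP-positive libraries of a line, points move up for Fxyd2 and down for Fxyd5, and the C50 GFP-negative libraries lie apart from each other (Fxyd4 at 433 and 209 TPM).

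Among 10213 other genes with a mean of at least 5 TPM, those most like Fxyd4 over the 22 libraries by Pearson r of log2(TPM + 1) were Mrpl35 (0.93), Gstt1 (0.93), Gstt3 (0.93), Gstt2 (0.89) and Plac8 (0.89). Mrpl35 encodes a mitochondrial ribosomal protein, and the Gstt genes encode theta-class glutathione transferases that resemble each other, so their reads may be shared. Of these 5, 3 were also among the 5 most alike by Spearman's rho and 2 within the 16 reporter libraries. The genes most like Fxyd2 were Blvrb, Prdx3, Gstt1, Rnf186 and Ppdpf (r from 0.88 to 0.90), Blvrb being a biliverdin reductase and Prdx3 a mitochondrial peroxidase. For Fxyd5 they were Psca, Cib2, Prxl2a, Epcam and Esd (r from 0.93 to 0.95), Epcam being an epithelial adhesion molecule.

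Other genes of the pump and its setting were read from lists of the same pathway. Of 12 partners and regulators of the pump, 10 were tested with dDAVP and 1 fell, where 6.51% of all genes did. This was Arrb2, a beta-arrestin that ends receptor signalling (29.8 to 15.9 TPM, limma adjusted p = 0.0109). The list's median change was 0.13, against -0.16 for all genes. Between fractions 4 of 9 were called higher and 1 lower, where 12.1% and 23.2% of all genes were. Sgk1, the aldosterone-induced kinase that acts on sodium transport, had means of 243 TPM in C1 GFP-negative and 394 TPM in C1 GFP-positive libraries and of 222 and 622 TPM in C50.

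Of 13 genes of principal cell sodium and potassium transport, 9 were tested with dDAVP, and 1 rose and 2 fell, where 2.37% of all genes tested were called higher and 6.51% lower. Slc9a3r1, a scaffold of apical transporters, rose by 0.35 on the log2(TPM + 1) scale (limma, adjusted p = 0.026). The sodium channel subunits Scnn1a and Scnn1g fell by 0.60 and 0.75 (limma, adjusted p = 0.0435 and 0.0295). After quantile normalization 0 of the 9 were called. The list's median change was -0.03, against -0.16 for all genes. Between fractions 6 of 9 were called higher and 0 lower, where 12.1% and 23.2% of all genes were. Scnn1g had means of 9.28 TPM in C1 GFP-negative and 21.6 TPM in C1 GFP-positive libraries, whereas in WT cells it was at 26.4 TPM without and 15.4 TPM with dDAVP.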

How the data were processed

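RNA was sequenced from 22 mpkCCD libraries made by a full-length method from total RNA, per the labels' protocols. The deposited values are TPM made by the authors with STAR and RSEM, per the submitters' processing notes; versions, genome build and annotation were not given in the sources used here. The authors' group means and ratios of group means, as deposited, were not used, and ratios printed here were computed from the library values. Rows sharing a symbol were summed (980 rows, 79 symbols), leaving 54514 entries. Genes with a mean of at least 1 TPM over the libraries of a fit were tested as log2(TPM + 1) with limma 3.58.1 in R 4.3.3, with a mean-variance trend and Benjamini-Hochberg adjustment over all genes tested, two-sided, at an adjusted p of 0.05. WT groups were compared with each other, and reporter libraries were fitted with line and fraction, with their interaction, and per line. The fits were tested on simulated data. The members and gene lists were chosen with earlier results of these data known. Named genes are the 9 members, up to 4 called genes per list with the highest mean, and the 5 genes most like Fxyd4 and the 2 other most variable members with a mean of at least 5 TPM; markers that check the labelled cell type are named beside these. Replicate numbers were not taken as pairs, and whether they pair the libraries is not known. Counts over the list of other pump family genes are not reported here. Protein sequences were not used here.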

Additional observations from a re-analysis of the deposited data

How the results depend on the processing

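No member call turned its direction in any alternative. With dDAVP, 1 of 6 members was called (Fxyd4, against 2) after quantile normalization, with a replicate block, and in the libraries with more genes detected, a split chosen after seeing the data; leaving out each library in turn gave 1 to 3. The replicate block left 122 genes called (against 1198) and Atp1b1 at an adjusted p of 0.108 (limma). Correlations of deviations between same-numbered libraries ran from -0.212 to 0.211, so the numbers were not taken as pairs. With so few libraries this does not exclude pairing. No block was fitted for the differences between lines. In the contrast that chose the members, from which nothing is read, the count was 3 (against 7) in the libraries with fewer genes detected, also split after seeing the data. The interaction gave 0 to 5 members when each library was left out. Counts over all genes with dDAVP were 442 with any TPM above 0, 757 with median-ratio scaling, 691 without trend, 2554 with genes detected as a covariate (also chosen after seeing the data), 101 in the libraries with more genes detected, and 314 to 2038 when a library was left out, the highest without WT dDAVP replicate 2. Interaction counts were 234 after quantile normalization, 11 with the replicate block, 13 without C1, 39 without C11, and 42 to 5038 when a library was left out. Counts for lines were 975 without C1 and 2744 to 5889 when a library was left out, and for fractions 303 in the libraries with fewer genes detected. The calls higher with dDAVP were 26.7% of all calls as deposited, 59.6% after median-ratio scaling and 54.1% after quantile normalization; for fractions these were 34.2%, 51.0% and 50.5%. The cause of these shifts was not tested. With Fxyd4 left out of the sum, mean Fxyd2 shares over the 10 groups ran from 20.7% in C1 GFP-negative to 94.5% in C50 GFP-positive libraries. Depth is unknown, so it sets no stated limit.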
